A study of Homo sapiens with 2 samples.

Results

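Peaks of the H3K27 demethylase UTX (KDM6A) and of the transcription factor TAL1 were collected at the loci of 9 genes that encode enzymes, or subunits of enzymes, acting on lysines 4 and 27 of histone H3: KDM6B, KMT2A, KMT2C, KMT2D, EZH2, SUZ12, EED, EP300 and CREBBP. A peak belonged to a locus where it shared 1 base or more with a fixed hg19 window around the gene, and the 9 windows together spanned 1.13 Mb. This gave 15 of the 17396 UTX peaks and 2 of the 2678 TAL1 peaks, or 17 of 20074 peaks in all. UTX had been mapped by chromatin immunoprecipitation and sequencing (ChIP-seq) in untreated cells of Jurkat, a line established from human T cell acute lymphoblastic leukaemia, with a mixture of a home-made antibody and A302-374A against UTX. The series held 1 UTX library and 1 mock library with an isotype IgG, without replicates, and the mock library was not analysed here. The TAL1 sites were taken by the submitters from an earlier study, and the sources used here do not say from which cells. Both lists gave positions only, so the depth behind each peak is unknown, peaks could be sized only by their width, and no difference between loci has a replicate check or a test.

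The products of these genes act on the same histone tail. EZH2, SUZ12 and EED form the core of Polycomb repressive complex 2 (PRC2), which methylates H3K27, and KDM6B removes that mark as UTX does. KMT2C and KMT2D methylate H3K4 at enhancers in complexes that contain UTX, KMT2A methylates H3K4 in a complex with menin, and EP300 and CREBBP acetylate histones, H3K27 among them. In T cell leukaemia, PRC2 genes are recurrently lost, and KMT2A is a recurrent partner in chromosomal translocations.

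All 9 loci had a promoter in the RefSeq table of build GRCh38.p14, 12 promoters in all, each from 250 bases before to 50 bases after a start, since KDM6B, EZH2 and CREBBP had more than 1. An hg19 sequence was not used here, so the peaks could not be placed on these promoters, and the coordinates of the sequences cannot be set against those of the peaks. The 250 bases before the start of 3 genes are printed 5′ to 3′ with every CG pair in capitals. KMT2A (chr11:118436242-118436491, plus strand) is shown because its window held the only TAL1 peak inside a UTX peak, KMT2C (chr7:152436004-152436253, minus strand) because its window held no peak, and EED (chr11:86244503-86244752, plus strand) because it had the fewest CG pairs of the loci with 1 promoter in the table and its window held a UTX peak.
KMT2A: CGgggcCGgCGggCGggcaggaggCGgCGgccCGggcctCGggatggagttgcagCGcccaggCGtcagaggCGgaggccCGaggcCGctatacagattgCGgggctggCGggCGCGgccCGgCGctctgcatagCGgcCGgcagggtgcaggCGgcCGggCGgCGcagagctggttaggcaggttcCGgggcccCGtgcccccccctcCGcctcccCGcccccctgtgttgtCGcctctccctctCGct
KMT2C: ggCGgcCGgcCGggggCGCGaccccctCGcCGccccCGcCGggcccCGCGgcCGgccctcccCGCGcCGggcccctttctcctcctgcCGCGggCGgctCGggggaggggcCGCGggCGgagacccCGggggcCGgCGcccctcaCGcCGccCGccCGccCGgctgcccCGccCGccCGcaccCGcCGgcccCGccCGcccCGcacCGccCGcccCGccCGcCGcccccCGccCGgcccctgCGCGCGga
EED: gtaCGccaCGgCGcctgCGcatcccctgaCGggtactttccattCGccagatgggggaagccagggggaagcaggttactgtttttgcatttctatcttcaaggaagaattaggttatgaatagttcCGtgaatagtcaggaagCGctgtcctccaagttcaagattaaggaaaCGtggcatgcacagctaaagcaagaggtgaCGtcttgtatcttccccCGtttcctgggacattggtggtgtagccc
In these stretches KMT2A had 31 CG pairs, KMT2C 48 and EED 11. Over their full length, the 12 promoters had a median of 38 CG pairs, against a median of 14 (quartiles 4 and 28) over the 35116 promoters of the table, and 11 of the 12 lay above that median. KMT2C, the locus without a peak, had the most, with 56, and the second KDM6B promoter had the fewest, with 2. The E-box CANNTG, the motif class that TAL1 dimers bind, was found in 6 of the 12 promoters and in 68.7% of all promoters. KMT2A held the form CAGCTG once, after the gene start and so outside the printed stretch, and the first CREBBP promoter the form CAGGTG once; these forms, in 1 of the 12 promoters each, were in 17.9% and 20.6% of all promoters. The promoter of KMT2C held no E-box. Neither did those of EZH2, SUZ12 and EP300 or the second CREBBP promoter, and the windows of these loci held UTX peaks. CAGATG was found once each in EED and in the second KDM6B promoter, or 2 of the 12, and in 14.7% of all promoters. The letters AGATAA, a form of the GATA motif, were in 0 of the 12 and in 10.3% of all promoters. TGTGGT, a RUNX motif, was in the 2 KDM6B promoters and in 13.1% of all, and CCGGAAG, an ETS motif, was in 0 of the 12 and in 10.3% of all. Each motif was searched on both strands, and its forms overlap with CANNTG.

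UTX was called at 8 of the 9 loci, and the windows held between 0 and 3 UTX peaks. KMT2A, KMT2D and EZH2 had 3 UTX peaks each, KDM6B had 2, SUZ12, EED, EP300 and CREBBP had 1 each, and KMT2C had 0. For comparison, fixed bins of a window's length were laid end to end along each chromosome. At least 1 UTX peak was held by 21.7% of bins of the EED length and 28.4% of the SUZ12 length. The share was 33.9% at the length shared by EP300 and KMT2A, and 43.7% at that of CREBBP. At the KMT2C length, 44.3% of bins held 0. The share with at least 1 was not computed for KDM6B, KMT2D and EZH2. TAL1 was called at KMT2A and at CREBBP, with 1 peak each. At least 1 TAL1 peak was held by 8.76% of bins of the KMT2A length and 13.1% of the CREBBP length. The windows differ in length, from 40 kb at KDM6B to 330 kb at KMT2C. Per 100 kb of window, the 9 loci had 1.33 UTX peaks, against 0.588 over the 2959 Mb between the first and last UTX peaks of the 24 chromosomes. The corresponding values for TAL1 were 0.177 and 0.0905 per 100 kb. Windows drawn around genes are not comparable with the genome at large, so these densities are given side by side and no difference is read from them.

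**Figure D1:**
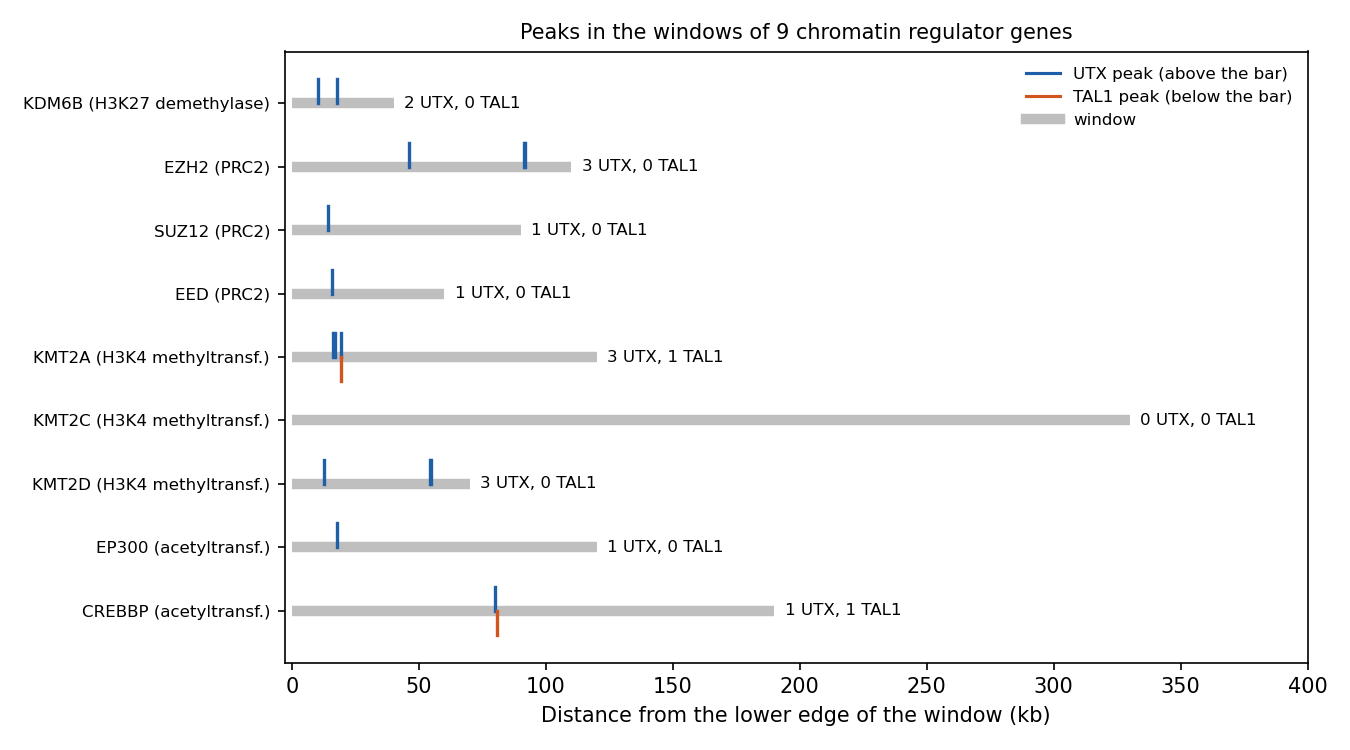
Positions of UTX peaks (blue ticks above each bar) and TAL1 peaks (orange ticks below) in the 9 windows (grey bars), with the distance from the lower edge of each window in kb on the horizontal axis. UTX ticks stand in 8 of the 9 windows, 3 each at KMT2A, KMT2D and EZH2, and the longest window, KMT2C, is empty.

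KDM6B, the H3K27 demethylase related to UTX, had the highest density, at 5.0 UTX peaks per 100 kb. That value rests on 2 peaks in the shortest window. A UTX peak of 449 bases lay at chr17:7740024-7740472 and one of 191 bases at chr17:7747386-7747576, 6.91 kb apart. The first was wider than 73.9% of the UTX list and the second wider than 12.5%. When fixed bins of 40 kb were laid end to end along each chromosome, 4.85% of 73970 bins held at least 2 UTX peaks. No TAL1 peak lay near: the closest one was 1055 kb from the second peak, at chr17:8802444-8802611. In the gene order of the RefSeq table, DNAH2 and TMEM88 are the named coding neighbours of KDM6B, and without an hg19 annotation the peaks could not be assigned to one gene or another in this or any other window.

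At the PRC2 loci, 5 UTX peaks were called over 260 kb, or 1.92 per 100 kb, and no TAL1 peak. Of bins of 120 kb, longer than any of these windows, only 8.76% held a TAL1 peak, so windows without one are usual. EZH2, the catalytic subunit, had 3 of them. A UTX peak of 302 bases at chr7:148536026-148536327 stood 45.0 kb below a close pair of UTX peaks. The pair consisted of a peak of 169 bases at chr7:148581300-148581468 and one of 418 bases at chr7:148581604-148582021, only 135 bases apart. The 169-base peak was the narrowest of the 15, narrower than most of the list, in which 6.15% of peaks were narrower still. Of 26889 bins of the length of the EZH2 window, 7.95% held at least 3 UTX peaks. SUZ12, the subunit that holds the complex together, had a single UTX peak of 366 bases at chr17:30263936-30264301, and EED, which binds trimethylated H3K27, had one of 415 bases at chr11:85955622-85956036. Single peaks in windows of these lengths are common in the list: 28.4% of bins of the SUZ12 length and 21.7% of bins of the EED length held at least 1.

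The peaks at SUZ12 and EED stood far from any other UTX site. The nearest other UTX peak was 387 kb away at SUZ12 and 256 kb away at EED. In the whole list, 4.68% of UTX peaks had no other UTX peak within 250 kb, and 2 of the 15 peaks were of this kind. The 250 kb line was not planned and lies just under the distance at EED, so a slightly longer line would leave out EED. For EED the nearest UTX site and the nearest TAL1 site were the same place, where a TAL1 peak of 327 bases at chr11:86211847-86212173 lay in a UTX peak of 351 bases at chr11:86211833-86212183. HIKESHI and PICALM are the coding neighbours of EED in the RefSeq table, and UTP6 and LRRC37B those of SUZ12. SUZ12 also has a partial copy elsewhere on its chromosome, and the sources used here do not say how reads that map to more than one place were treated.

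The 3 H3K4 methyltransferase loci differed from each other in peak number. KMT2A had 3 UTX peaks and 1 TAL1 peak, KMT2D had 3 UTX peaks and no TAL1 peak, and KMT2C had neither, so that 6 UTX peaks fell in 520 kb, or 1.15 per 100 kb. At KMT2A all 3 UTX peaks lay within 3.41 kb. A peak of 251 bases at chr11:118306012-118306262 was followed after 443 bases by one of 460 bases at chr11:118306706-118307165, and after a further 1.95 kb by one of 311 bases at chr11:118309112-118309422. Of 24650 bins of the length of the KMT2A window, 8.95% held at least 3 UTX peaks.

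The third UTX peak of KMT2A held the TAL1 peak. The TAL1 peak at chr11:118309160-118309318 was 159 bases wide and lay entirely inside the 311-base UTX peak, with 48 bases of UTX peak on its lower side and 104 on its upper side. Their centres were 28 bases apart, against a median of 44.5 bases over the 2163 shared TAL1 peaks of the list. The UTX peak with TAL1 was not the widest of the 3 at KMT2A, and the 460-base peak without TAL1 ended 1.99 kb below the TAL1 peak. At 159 bases, the TAL1 peak was close to the median of 157 bases for TAL1 peaks inside UTX. Of bins of this window length, 8.76% held at least 1 TAL1 peak, and the next TAL1 peak was 122 kb away.

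KMT2D had the widest UTX peak of the 9 loci. It measured 715 bases at chr12:49412226-49412940, wider than 93.1% of the list, and 1196 UTX peaks were at least as wide. It stood 41.1 kb below a close pair, which consisted of a peak of 254 bases at chr12:49454046-49454299 and, 122 bases further on, one of 457 bases at chr12:49454422-49454878. Bins of the length of this window held at least 3 UTX peaks in 4.15% of 42262 cases. The closest TAL1 peak was 702 kb from the pair and lay in a UTX peak of 794 bases. PRKAG1 and RHEBL1 flank KMT2D in the RefSeq table, with PRKAG1 at lower coordinates.

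No UTX and no TAL1 peak was called in the 330 kb of the KMT2C window. The empty stretch was bounded by a UTX peak of 215 bases at chr7:151819716-151819930, which ended 69 bases below the window, and by a UTX peak of 698 bases at chr7:152160987-152161684, which began 11 kb above it. These peaks were 341 kb apart. Empty stretches of this size are not rare in the list: 1963 of the 17372 gaps between adjacent UTX peaks (11.3%) were at least as long, and 44.3% of bins of the window's length held 0 UTX peaks. For TAL1, 79.5% of such bins held 0 peaks. GALNT11 and XRCC2 are the coding neighbours of KMT2C in the RefSeq table. Parts of KMT2C have near-identical copies on other chromosomes, and with the treatment of such reads not given and the depth unknown, the empty window says only that the list used here has no peak there.

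**Figure D2:**
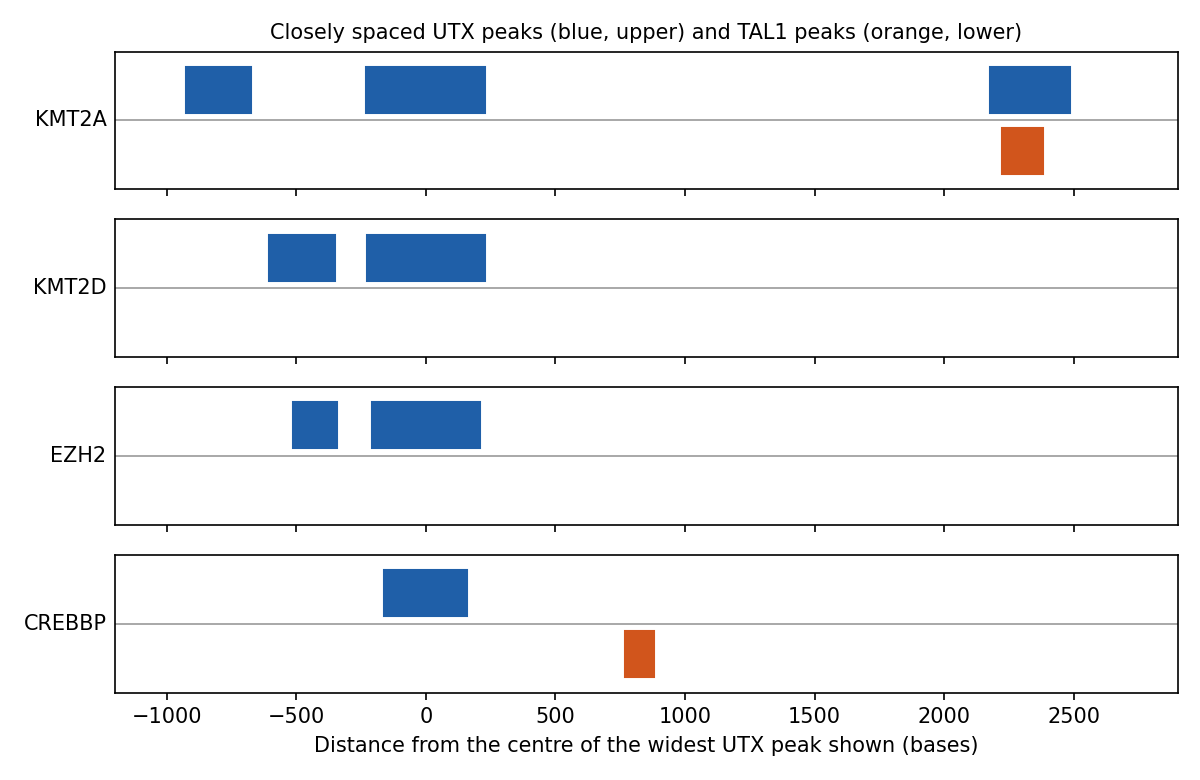
Close views of 4 loci, with UTX peaks in blue above the line, TAL1 peaks in orange below it, and the distance in bases from the centre of the widest UTX peak shown on the horizontal axis (for KMT2D and EZH2, the close pair alone is drawn). The TAL1 peak of KMT2A lies inside the rightmost UTX peak, whereas that of CREBBP lies 606 bases beyond the UTX peak.

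The acetyltransferase loci had 1 UTX peak each, which at 0.645 per 100 kb was the lowest density of the 4 roles. At EP300 the UTX peak at chr22:41487316-41487947 measured 632 bases, wider than 89.9% of the list, and its nearest TAL1 peak was 277 kb away. At CREBBP the UTX peak at chr16:3839710-3840031 measured 322 bases, next to the median of the list. At least 1 UTX peak was held by 33.9% of bins of the EP300 length and by 43.7% of bins of the CREBBP length, so a single peak in these windows is near the level of the list as a whole. CREBBP also had a TAL1 peak, of 112 bases at chr16:3840638-3840749, which did not overlap UTX. It began 606 bases above the end of the UTX peak, with 823 bases between the centres. Of the 515 TAL1 peaks outside UTX, 30 (5.83%) had a UTX peak within 1 kb. At 112 bases, the TAL1 peak was close to the median of 118 bases for TAL1 peaks outside UTX. Of bins of this length, 13.1% held at least 1 TAL1 peak.

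The 15 UTX peaks were of ordinary width. They ranged from 169 to 715 bases with a median of 366 bases (quartiles 278 and 453), and the whole UTX list had a median of 320 bases (quartiles 230 and 457). Of the 15 peaks, 9 were wider than the median of the list, against 49.8% of the list, and 3 were wider than its upper quartile, against 24.9%. Those 3 were the 715-base peak at KMT2D, the 632-base peak at EP300 and the 460-base peak at KMT2A. None of the 15 was wider than 1 kb, a width passed by 2.15% of the list.

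**Figure D3:**
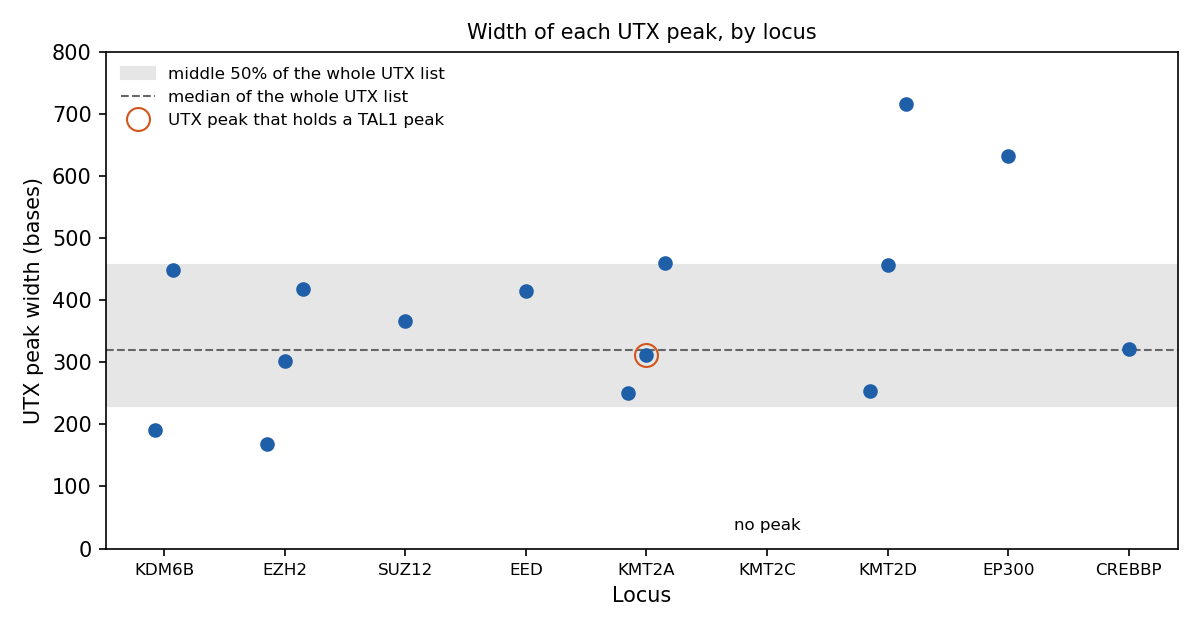
Width in bases of each UTX peak (points) at the 9 loci, with the middle 50% of the whole UTX list as a grey band from 230 to 457 bases, its median of 320 bases as a dashed line, and a ring around the peak that holds a TAL1 peak. Most points fall in the band, KMT2D (715 bases) and EP300 (632 bases) stand well above it and KMT2A (460 bases) just above it, and KDM6B (191 bases) and EZH2 (169 bases) have the peaks below it.

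Closely spaced UTX peaks occurred at KMT2A, KMT2D and EZH2. Of the 15 peaks, 6 (40.0%) had another UTX peak within 500 bases, against 9.02% of the list. They form 3 pairs, so they are not 6 separate cases. The gaps were 443 bases at KMT2A, 122 at KMT2D and 135 at EZH2, beside a median of 151 bases over the 831 such pairs of the list. The 500-base limit was not planned, and a limit below 443 bases would leave out the KMT2A pair. In each of the 3 pairs the peak at the lower coordinate was the narrower, by a ratio of 1.83 at KMT2A, 1.8 at KMT2D and 2.47 at EZH2. KMT2A is on the plus strand and KMT2D and EZH2 are on the minus strand, so this order is not shared along the genes. In the list as a whole the lower peak was the narrower in 50.5% of pairs, and the wider peak exceeded the narrower by a median ratio of 1.61. None of the 3 pairs overlapped TAL1, which was found in 17.7% of the pairs of the list. With only 3 pairs, no difference from the list is read from the order of widths or from the absence of TAL1.

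Most UTX peaks at these loci were far from TAL1. Of the 15, 1 overlapped TAL1 (6.67%, 95% exact binomial interval 0.169 to 31.9%, which covers counting of peaks only), against 12.1% of the list, a background value within that interval. The interval is wide and takes the 15 peaks as independent, though they lie at 8 loci, so it cannot show the shares alike. Of the 2 TAL1 peaks, 1 lay in UTX (50%, interval 1.26 to 98.7%), against 80.8% of the list. With 2 peaks this interval spans nearly every share, so it cannot set the 2 values apart or show them alike. A TAL1 peak no more than 1 kb away was found for 2 UTX peaks (13.3%), the third at KMT2A and that at CREBBP, and for 13.2% of the list. A TAL1 peak within 10 kb was found for 4 UTX peaks (26.7%), 3 of them at KMT2A and 1 at CREBBP, and for 19.3% of the list. At these 2 ranges the share of the 15 was thus not below that of the list. The other 11 UTX peaks, at 6 loci, lay more than 100 kb from any TAL1 peak, the farthest at KDM6B with 1062 kb. Within 100 kb of TAL1 there were thus 26.7% of the 15 peaks and 41.4% of the list. The median distance was 702 kb for the 15 and 162 kb for the list, and peaks of 1 locus share nearly 1 distance, so that this median rests on 8 loci.

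**Figure D4:**
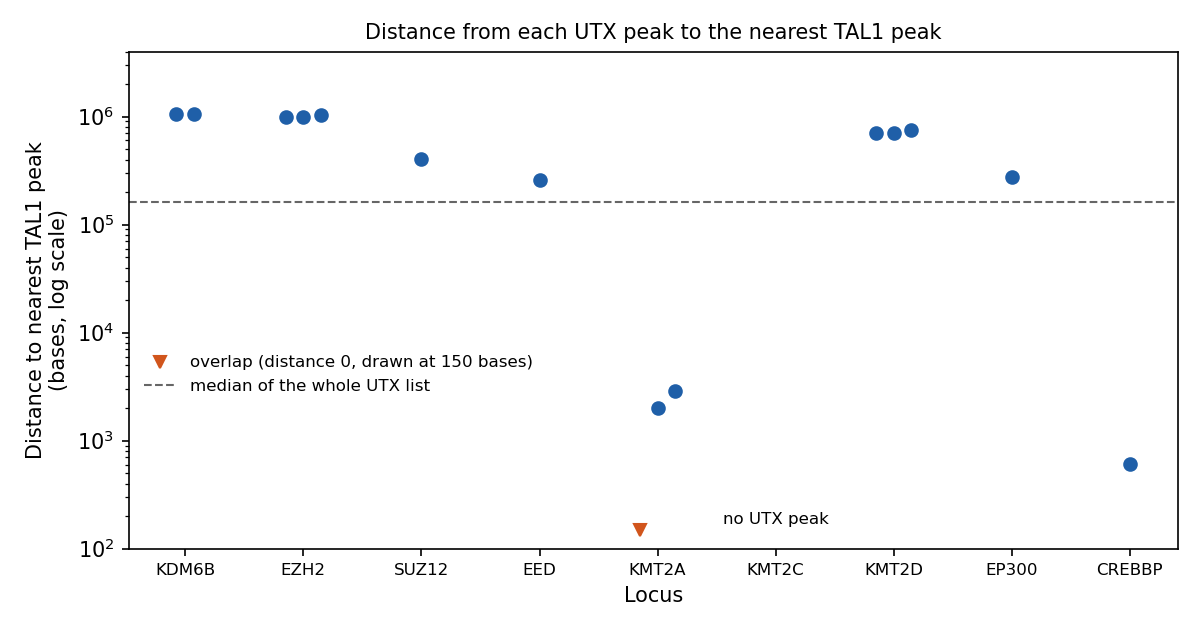
Distance in bases from each UTX peak (points) to the nearest TAL1 peak, on a log scale, by locus, with the median of the whole UTX list (162 kb) as a dashed line and the overlap at KMT2A drawn as a triangle at the bottom. KMT2A and CREBBP lie below 3 kb, and the peaks of the other 6 loci with UTX lie above the line, from 256 kb at EED to 1062 kb at KDM6B.

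The nearest TAL1 sites of the 8 loci were themselves mostly UTX sites. The 15 UTX peaks had 8 different nearest TAL1 peaks, and 7 of these lay in a UTX peak, near the 80.8% of the list; the exception was that of CREBBP. For SUZ12 the site was a TAL1 peak of 252 bases at chr17:29862794-29863045 in a UTX peak of 380 bases. For EZH2 it was a TAL1 peak of 175 bases at chr7:149567123-149567297 in a UTX peak of 613 bases, 985 kb from the close pair.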

How the data were processed

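UTX ChIP-seq peaks of 1 Jurkat library were set beside a TAL1 list from an earlier study. MACS2 2.0.10, BWA 0.6.2, SAMtools 0.1.18 and the hg19 build are listed, per the submitters' processing notes; the sources used here do not give their order, threshold or filters. Both deposited lists hold 3 columns, the chromosome, start and end of each peak, with no score or count. The build of the TAL1 list is not given; 2163 of its peaks overlap UTX as deposited, but 46 and 61 after moves of 5 kb up and down, so both were read as hg19. Printed positions count from 1.

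Peaks were assigned to windows and overlaps of at least 1 base were counted in Python 3.11.15 with numpy 2.4.6 and scipy 1.17.1, window counts were checked with bedtools 2.31.1, and the interval code was tested on simulated data (0 of 600 intervals differed from a direct search). Distances are gaps between peak edges. Bins of each window's length were laid from the first to the last UTX peak of each chromosome. All 9 loci are named, with every TAL1 peak and every UTX peak in the windows. The members, windows and lists were chosen with earlier results of these data known. Gene order and promoters are from RefSeq GRCh38.p14. Other genes of the pathway, which would need an hg19 annotation, were not analysed here. Alternatives varied window edges, the overlap rule, the width of peaks kept and the loci included.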

Additional observations from a re-analysis of the deposited data

How the results depend on the processing

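Of 58 values computed under other settings, 47 stayed within a fixed ratio of the reported count or density, or within the 95% interval of the reported share or median. The interval of the TAL1 share runs from 1.26 to 98.7%, so only shares near 0% or 100% could leave it. The number 47 is therefore not a measure of stability. When only the wider 50% of the UTX peaks were kept, 9 UTX peaks were left (0.796 per 100 kb) and the UTX peak with TAL1 at KMT2A was lost, so that 0% of UTX and 0% of TAL1 peaks were shared. Keeping part of a list cannot raise a count, so nothing on processing is read from the lower number and density. The density of the whole list after this cut was not computed. With the wider 50% of the TAL1 peaks, the peak at CREBBP dropped out, which left 1 TAL1 peak and a share of 100%. Counting peaks within 1 kb as shared added CREBBP, for 100% of TAL1 peaks and 13.3% of UTX peaks. Without the KMT2A window, 1 TAL1 peak and shares of 0% and 0% remained, so the overlap rests on that locus. KMT2A, KMT2D and EZH2 had equally many UTX peaks, and each was left out in turn. Windows extended by 50 kb, chosen after seeing the data, held 25 UTX peaks and still 2 TAL1 peaks. No paired analysis was possible because only single libraries were made. Without scores or read counts, neither enrichment nor depth could be varied.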

Other observations

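The windows were widened by 100 kb on both sides, a setting chosen after seeing the data, and the UTX peaks of each were set beside fixed bins of the widened length. EZH2 and KMT2A then held 9 UTX peaks each, a number reached by 3.23% and 3.67% of bins of their lengths. These low shares came only at this widening. Widened by 50 kb, the 2 loci held 4 each, reached by 11.3% and 12.2% of bins. Before widening they held 3 each, reached by 7.95% and 8.95%. KDM6B and KMT2D held 7 each at 100 kb, reached by 3.93% and 5.02% of bins, and 5 each at 50 kb, reached by 3.55% and 4.96%. At 100 kb, CREBBP held 3 (31.8% of bins), EP300 2 (38.1%) and KMT2C 2 (51.0%). SUZ12 and EED still held 1 each, reached by 52.8% and 50.5% of bins. Windows drawn around genes are not like bins at large, and no difference between the loci was tested. No further TAL1 peak entered any of the 9 widened windows, so KMT2A and CREBBP kept 1 each and the other loci 0. The share of bins with TAL1 was not computed for the widened lengths. Of bins of 330 kb, the length of the KMT2C window before widening, 79.5% held 0 TAL1 peaks, so an absence of TAL1 is usual.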
